A study of Mus musculus with 3 samples.

Results

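The cartilage spots are the positions of a spatial transcriptome at which collagen genes of cartilage took the largest share of the RNA, and they are compared here between mouse embryos of E11.5 and E12.5. Every spot with at least 1000 UMIs (unique molecular identifiers, 1 per captured transcript) was scored by the summed share of Col2a1, Col9a1 and Col9a3 in its UMIs, and the top 6% of each section were kept. That gave 94 of 1561 spots at E11.5 and 61 of 1014 at E12.5, or 155 of 2575 spots of both sections and of 3942 in the series. The 3 scoring genes therefore describe the choice and are no result. Their summed level, in counts per 1000000 UMIs (CPM), had a median of 4586 over the E11.5 cartilage spots and 15181 over those of E12.5. The last spot inside stood at 2757 CPM and the first outside at 2731 CPM at E11.5, against 9253 and 9231 CPM at E12.5. Only 5 spots of E11.5 reached the level that E12.5 required, so the same rank within a section meant a higher collagen level at the later stage. By gene, the summed cartilage spots held 3920 CPM of Col2a1 at E11.5 and 12005 at E12.5, 511 and 1989 CPM of Col9a1, and 475 and 2372 CPM of Col9a3.

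The series placed 10 µm cryosections of the embryonic mouse axial skeleton on Visium slides, whose spots of 55 µm capture polyadenylated RNA at centres 100 µm apart. It holds 1 section per stage, of which those of E11.5 and E12.5 are used here and that of E13.5 is not. Both groups are untreated mouse tissue labelled as bone, and no allele, agent, strain or sex, and no number of embryos, is given in the sources used here. Stage, embryo, section and axial level therefore cannot be told apart, and no difference between the stages has a replicate check or a p-value. The summed cartilage spots held 1902018 UMIs at E11.5 and 1133217 at E12.5, so that 1 UMI was worth 0.526 and 0.882 CPM. Single cartilage spots held 11210 to 35913 UMIs at E11.5 (median 19942) and 6345 to 33583 at E12.5 (median 18181), fewer than the medians of 27859 and 24970 of the other spots. Spots hold several cells, share their section and are not replicates. Fewer cells of a type and less RNA per cell cannot be told apart in them.

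Cartilage of the vertebrae forms from the sclerotome, the ventral part of the somites, whose cells gather around the notochord and along the neural tube. The transcription factor Sox9, with Sox5 and Sox6 as partners, switches on the genes of the cartilage matrix, which is a network of fibrils of types II, IX and XI collagen that holds large aggregates of aggrecan on hyaluronan. Chondrocytes later enlarge, turn on a hypertrophic programme and are replaced by bone.

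The label was checked with genes that did not choose the spots. Acan, the core protein of aggrecan, stood at 89.4 CPM in the E11.5 cartilage spots and at 2.10 CPM in the other spots, and at 569 against 19.5 CPM at E12.5. Pax1 or Pax9, transcription factors of the sclerotome, had a UMI in 91 of 94 and 59 of 61 cartilage spots (96.8% and 96.7%), against 29.6% and 55.7% of the other, deeper spots. The cartilage spots were not free of other tissues. Of them, 13 at E11.5 and 18 at E12.5 were also among the top 3% of their section for the summed share of the notochord genes T, Shh and Chrd, and 16 and 4 among the top 10% for tendon genes. The top 10% for heart genes held 7 cartilage spots of E11.5 and 0 of E12.5. No cartilage spot of either stage was in the top 10% for neural tube, skeletal muscle or endothelial genes. These classes may share spots. A top 10% class holds 10% of a section's spots by definition. Only the tendon count of E11.5 was above that share of the cartilage spots, so the other top 10% counts show no excess. The sections shared 434 barcodes in all and 0 among cartilage spots. Xist, the RNA of the inactive X chromosome, had 268 UMIs in the cartilage spots of E11.5 and 0 in those of E12.5. In the other spots it had 4035 and 0 UMIs, so a difference of sex cannot be told apart from stage either. Globin genes took 2.73% of the cartilage spots' UMIs at E11.5 and 0.209% at E12.5, mitochondrial genes 0.739% and 0.333%, and ribosomal protein genes 19.6% and 16.7%.

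A gene is called higher or lower here where it had at least 50 UMIs over both sums and its ratio of CPM values, E12.5 over E11.5, was at least 2-fold. Each ratio is given with a 95% interval from the exact binomial distribution of its UMIs, which covers counting error only and not the differences between spots, sections or embryos. Of 7999 genes with enough UMIs, 365 were higher at E12.5 in the cartilage spots (4.56%) and 191 lower (2.39%). In the other spots of the same sections, 208 of these genes were higher (2.6%) and 47 lower (0.588%). The other spots are all remaining tissues of a section. Their heart, liver and globin RNA was also lower at E12.5, so they do not compare like tissue. Of the 365 higher in cartilage spots, 106 were also higher elsewhere, and of the 191 lower, 30 were also lower elsewhere. The median log2 ratio was 0.10 in the cartilage spots and 0.16 in the other spots. The balance of the calls depended on the scaling: 65.6% of them were higher with CPM, against 53.3% after median-of-ratios scaling (272 higher, 238 lower) and 52.6% when globin, mitochondrial and ribosomal protein genes were left out of the totals (269 and 242).

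**Figure D1:**
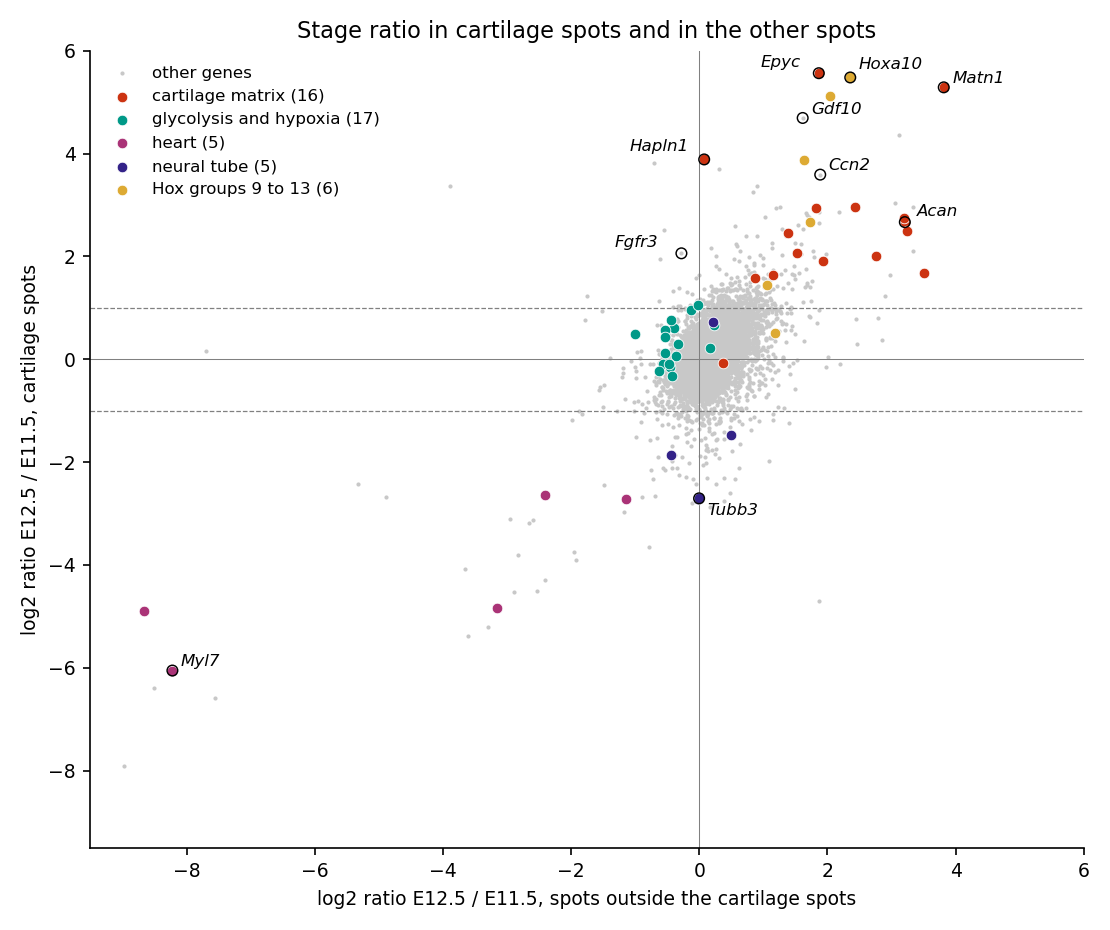
Log2 ratio of CPM, E12.5 over E11.5, in the summed cartilage spots (vertical axis) against the same ratio in the summed other spots of both sections (horizontal axis), 1 point per gene with at least 50 UMIs, 5 gene lists in colour with the number of their genes shown, and dashed lines at 2-fold. Cartilage matrix genes other than Vcan lie above the upper dashed line, Hapln1 and Fgfr3 lie above it with other-spot ratios of 1.05 and 0.824, and the neural gene Tubb3 lies below the lower line with an other-spot ratio of 1.00.

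The genes of the cartilage matrix were higher at E12.5. Of the 22 listed genes besides the scoring ones, 16 had enough UMIs, and 15 of these were higher and 0 lower. Their median log2 ratio was 2.48, beside 0.10 over all 7999 genes and 1.90 for the same 16 genes in the other spots. The summed level of the list went from 1920 to 8138 CPM. Over single spots it ran from 563 to 7021 CPM at E11.5, with a median of 1790, and from 3152 to 21548 at E12.5, with a median of 7006, so that the stages overlapped only in part. The list was put together with results of these data known, and its genes lie in the same matrix as the scoring collagens. The 6 listed genes under 50 UMIs were Ucma, Cytl1, Hapln3, Comp, Matn3 and Matn2.

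Acan was 6.37-fold higher at E12.5 (5.37 to 7.59). It had a median of 66.8 CPM and a highest value of 724 CPM over the E11.5 cartilage spots, and ran from 55.6 over a median of 490 to 2104 CPM at E12.5. All but 1 of the 61 spots of E12.5 stood above the E11.5 median, and 18 stood above the highest E11.5 spot. Matn4, a matrilin that links fibrils and proteoglycans, went from 110 to 620 CPM, 5.62-fold higher (4.81 to 6.59), and 37 of 61 spots of E12.5 were above every spot of E11.5. Both chains that form type XI collagen with a type II chain behaved alike in direction. Col11a2 stood at 107 and 833 CPM (7.81-fold, 6.70 to 9.13) and Col11a1 at 335 and 1850 CPM (5.53-fold, 5.05 to 6.05), and every E12.5 spot was above the E11.5 median of either gene. Col9a2, the type IX chain that was not used for scoring, stood at 420 and 1583 CPM (3.77-fold, 3.47 to 4.11). Its lowest E12.5 spot, at 566 CPM, was above its E11.5 median of 353 CPM.

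The largest matrix ratios belonged to genes with few UMIs at E11.5. Epyc encodes epiphycan, a small leucine-rich proteoglycan of growth cartilage. It had 8 UMIs at E11.5 and 239 at E12.5, or 4.21 and 211 CPM, a ratio of 50.1 (25.04 to 117), while the other spots went from 1.67 to 6.12 CPM (3.66). No E11.5 spot exceeded 84.0 CPM, whereas the E12.5 spots had a median of 77.3 CPM and reached 2280 CPM. The gene was unevenly spread, since 5 spots held 47.7% of its E12.5 UMIs. Matn1, another matrilin, had 3 UMIs at E11.5 and 81 at E12.5, a ratio of 45.3 (15.0 to 224). Hapln1, the link protein that fastens aggrecan to hyaluronan, went from 30.5 to 454 CPM, 14.9-fold higher (11.3 to 19.9), with 20.1 and 21.2 CPM in the other spots (1.05). Its median was 0 CPM over the E11.5 spots and 377 CPM over those of E12.5, and 24 of 61 E12.5 spots exceeded the highest E11.5 value of 446 CPM. Cnmd, the angiogenesis inhibitor chondromodulin, stood at 62.6 and 485 CPM (7.76-fold, 6.35 to 9.54).

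The rest of the list was higher too, with 1 exception. Susd5, a hyaluronan-binding membrane protein, stood at 51.0 and 343 CPM (6.73-fold, 5.38 to 8.50). Fmod, the fibril-binding proteoglycan fibromodulin, stood at 32.6 and 137 CPM (4.20-fold), and Chad, the cell adhesion protein chondroadherin, at 27.3 and 87.4 CPM (3.20-fold). Snorc, Prelp and Col27a1 were higher as well, with ratios of 4.10, 3.02 and 3.11. That was Vcan, versican, the large proteoglycan of loose and precartilage mesenchyme. It stood at 531 CPM at E11.5 and 502 CPM at E12.5, a ratio of 0.947 (0.853 to 1.05), and its spots overlapped almost completely, from 52.9 to 1481 CPM and from 63.9 to 1224 CPM.

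**Figure D2:**
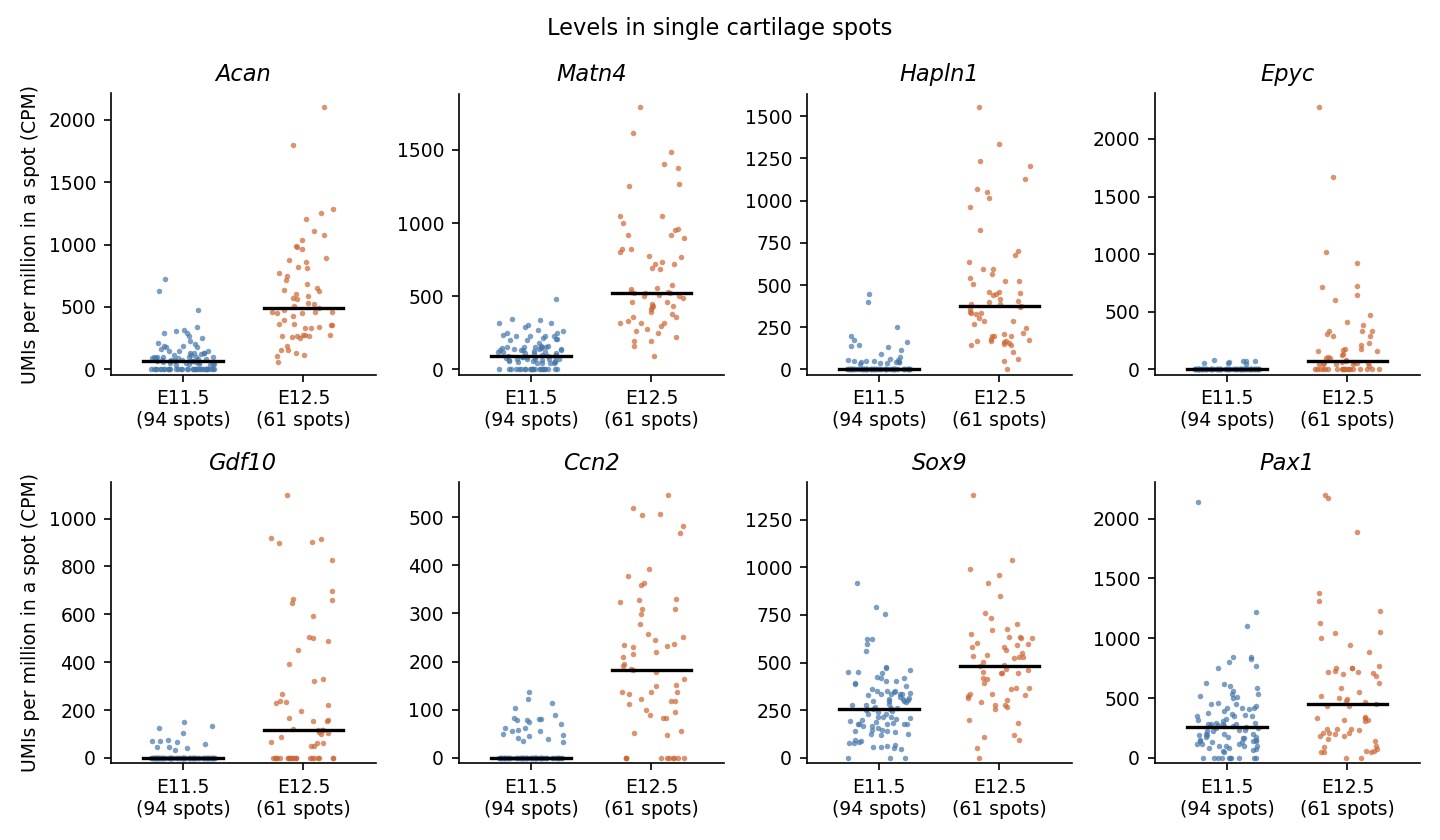
CPM of 8 genes in single cartilage spots, 94 of E11.5 and 61 of E12.5 (1 section each), with 1 point per spot and the median as a bar, each panel on its own linear axis from 0. Acan, Matn4, Hapln1, Epyc, Gdf10 and Ccn2 are near 0 CPM in many E11.5 spots and spread upward at E12.5, while Sox9 and Pax1 overlap widely between the stages.

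The sequences just before the start sites of 3 of these genes are shown because these genes had large ratios and such regions hold binding sites of transcription factors. They are the 250 bases before the RefSeq start on the coding strand, from the build GRCm38.p6, and Epyc has 2 annotated starts. Capitals mark matches on either strand to ACAAAG and AACAAT, which are core motifs bound by SOX proteins, to TATAAA (the TATA box) and to GGGCGG (a GC box), so that AACAAT on the reverse strand is printed as ATTGTT and GGGCGG as CCGCCC. The windows are chr10:97643818-97644067 and chr10:97646853-97647102 for Epyc, chr13:89540386-89540635 for Hapln1 and chr17:34038888-34039137 for Col11a2, all on the plus strand.
Epyc start 1: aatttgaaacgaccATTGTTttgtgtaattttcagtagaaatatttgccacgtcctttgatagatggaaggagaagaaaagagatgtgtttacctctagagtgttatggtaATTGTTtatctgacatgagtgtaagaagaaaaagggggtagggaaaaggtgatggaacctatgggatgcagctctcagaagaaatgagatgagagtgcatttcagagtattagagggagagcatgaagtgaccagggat
Epyc start 2: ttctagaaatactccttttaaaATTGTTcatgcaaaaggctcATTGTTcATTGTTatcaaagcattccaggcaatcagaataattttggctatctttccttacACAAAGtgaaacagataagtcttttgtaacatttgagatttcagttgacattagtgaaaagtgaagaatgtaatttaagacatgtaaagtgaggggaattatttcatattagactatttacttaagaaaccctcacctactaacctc
Hapln1: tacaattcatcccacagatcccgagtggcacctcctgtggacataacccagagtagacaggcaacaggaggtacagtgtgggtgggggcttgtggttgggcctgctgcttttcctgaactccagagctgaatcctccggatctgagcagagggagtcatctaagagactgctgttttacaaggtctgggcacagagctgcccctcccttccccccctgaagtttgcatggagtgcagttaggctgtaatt
Col11a2: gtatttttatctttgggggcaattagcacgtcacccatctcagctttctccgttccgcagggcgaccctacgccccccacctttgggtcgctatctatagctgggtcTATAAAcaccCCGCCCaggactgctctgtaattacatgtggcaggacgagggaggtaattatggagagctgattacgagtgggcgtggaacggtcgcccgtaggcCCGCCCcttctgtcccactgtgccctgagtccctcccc
The first Epyc window held AACAAT on the reverse strand 236 and 139 bases before the start. The second held it 228, 208 and 201 bases before the start, and ACAAAG on the forward strand at 147 bases. Col11a2 had TATAAA at 143 bases and GGGCGG on the reverse strand at 133 and 38 bases, and the Hapln1 window held none of the 4 motifs. Over 32851 windows of the same length, 16.5% held ACAAAG, 9.42% AACAAT, 12.4% TATAAA and 32.7% GGGCGG. Of 21 windows of 19 genes on the cartilage matrix list, 1, 4, 3 and 12 held them. Such matches describe letters and not binding sites, and their absence says only that these letters are not in the window.

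Because the collagen level differed between the stages, spots were also compared at a like level, namely those with 5000 to 12000 CPM of the scoring genes. These were 37 spots of E11.5, all of them cartilage spots, and 64 of E12.5, 17 of them cartilage spots, with median scores of 6321 and 6872 CPM. Among 6806 genes with enough UMIs, 249 were higher at E12.5 (3.66%), of which 101 were among the 365, and 79 were lower (1.16%), of which 51 were among the 191. Most of the matrix difference was smaller there. Only Hapln1, Matn4 and Fmod were higher among 13 genes of the cartilage matrix list with enough UMIs, and the median log2 ratio of the list was 0.43. Acan stood at 150 CPM at E11.5 and 187 CPM at E12.5 (1.24, 0.988 to 1.57), with ratios of 1.66 for Col11a2, 1.52 for Col11a1, 1.18 for Col9a2, 1.36 for Cnmd and 1.00 for Susd5. Epyc, not among the 13 because its UMIs (5 and 44) were under 50, had a ratio of 4.40 (1.75 to 14.2) at 7.14 and 31.4 CPM. Hapln1 had one of 2.38 (1.69 to 3.42) at 58.6 and 139 CPM. At E12.5, Epyc stood at 281 CPM and Acan at 691 CPM in the 44 spots above 12000 CPM, a range that only 1 spot of E11.5 reached. This like-level comparison was added after the values had been seen.

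**Figure D3:**
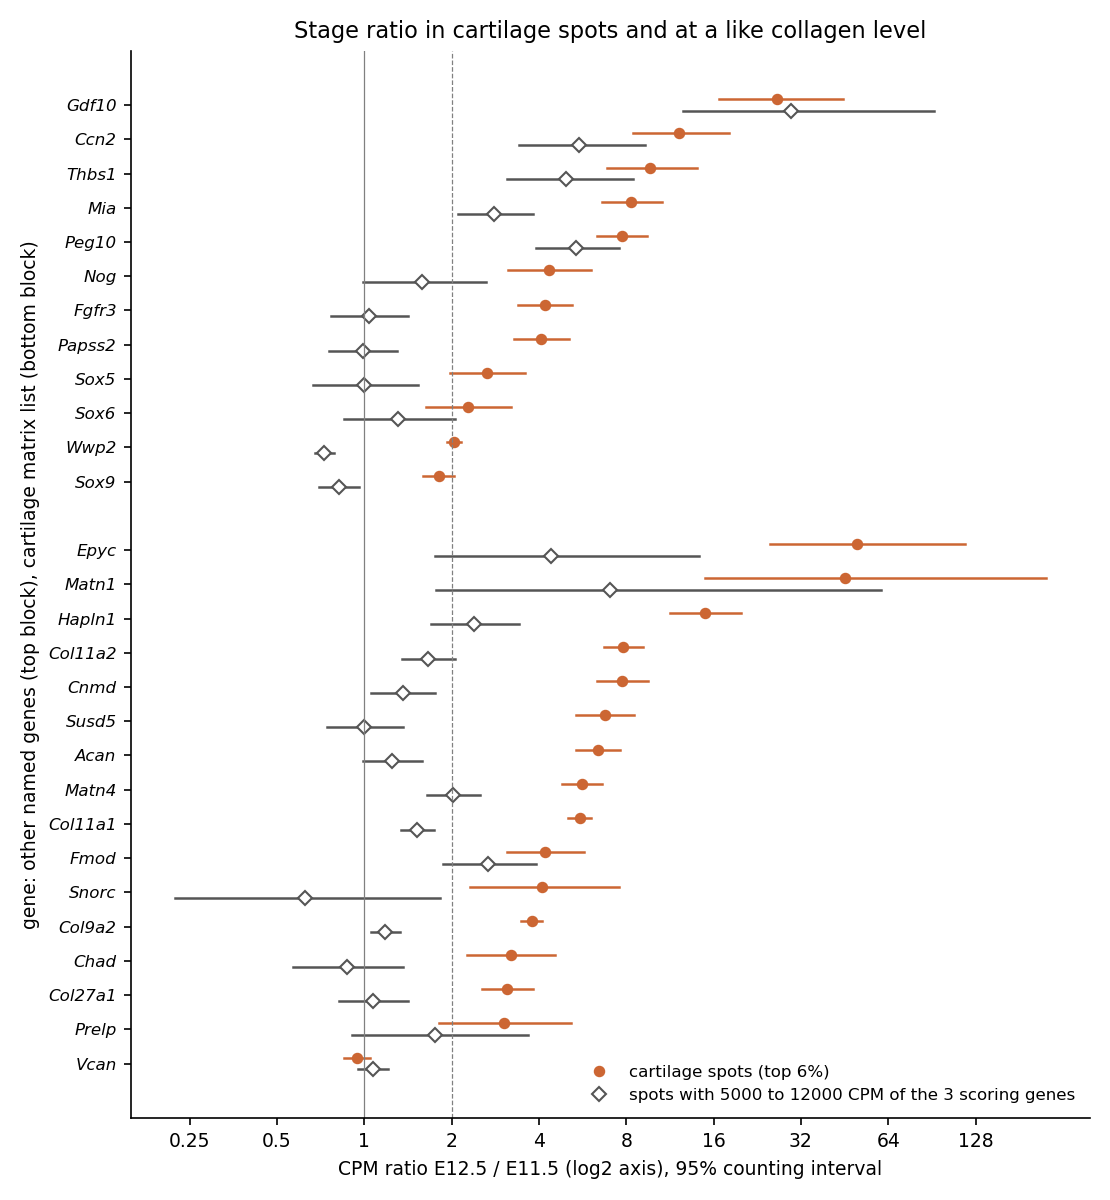
Ratio of CPM, E12.5 over E11.5, with its 95% counting interval on a log2 axis, in the cartilage spots (filled) and in spots with 5000 to 12000 CPM of the 3 scoring genes (open), for 12 named genes and the 16 cartilage matrix genes with at least 50 UMIs. The open points of Acan, Cnmd, Col9a2, Col11a1 and Col11a2 lie between 1-fold and 2-fold, whereas those of Gdf10, Ccn2, Thbs1 and Peg10 stay at 4.98 or above.

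Notochord RNA was part of these sums. T (also called Tbxt), a factor that the notochord needs, and Shh, the signal that it sends, stood at 45.7 and 49.4 CPM in the E11.5 cartilage spots and at 187 and 176 CPM in those of E12.5 (4.09-fold and 3.57-fold), and the 10 notochord genes summed to 348 and 808 CPM. Of the list, 6 genes had enough UMIs, 3 were higher and 0 lower, with a median log2 ratio of 1.00 beside 0.72 in the other spots, and Noto was at 0 UMIs at both stages. Krt8, a keratin of the notochord, was the third, at 49.4 and 116 CPM (2.34-fold). Without the notochord spots, 81 and 43 cartilage spots were left, with 307 genes higher (4.22%; 237 among the 365) and 191 lower (2.63%; 143 among the 191 before). The cartilage matrix list then had 13 of 14 genes higher and a median log2 ratio of 2.79. Of the 58 UMIs of Hapln1 at E11.5, 21 were outside notochord spots. The gene stood at 12.6 and 498 CPM without them, 39.5-fold higher (25.5 to 64.5), and at a like collagen level at 16.03 and 143 CPM, 8.90-fold higher (4.58 to 19.8). Susd5 had a ratio of 11.8 and Matn1 0 UMIs at E11.5 against 73 at E12.5. Krt8 was no longer higher (21.0 and 17.0 CPM, 0.809, 0.402 to 1.54), and Lgals3, a galectin with 13.1 and 97.1 CPM in all cartilage spots (7.39-fold), was left with 5 and 8 UMIs.

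Among the genes with the largest ratios were several secreted proteins that are no structural part of the matrix. Gdf10, a member of the BMP family, stood at 9.99 CPM at E11.5 and 265 CPM at E12.5, 26.5-fold higher (16.7 to 44.6), and at 18.3 and 56.0 CPM in the other spots (3.06). Its median was 0 CPM over the E11.5 spots, none of which exceeded 150 CPM, and 116 CPM over those of E12.5, 28 of which exceeded that value. In the like-level comparison it stood at 7.14 and 212 CPM, 29.6-fold higher (12.55 to 91.9), and the spots above 12000 CPM at E12.5 held a similar 239 CPM (206 to 276). Ccn2, also called connective tissue growth factor, stood at 17.4 and 212 CPM (12.2-fold, 8.46 to 18.1), and 37 of 61 spots of E12.5 were above every spot of E11.5. Thbs1, the matrix glycoprotein thrombospondin 1, stood at 20.5 and 199 CPM (9.68-fold, 6.87 to 14.0). The ratios of both at a like collagen level were 5.48 and 4.98. Mia, a small protein secreted by chondrocytes, went from 45.2 to 376 CPM, 8.31-fold higher (6.58 to 10.6), close to its ratio of 8.30 in the other spots, where it stood at 3.96 and 32.8 CPM.

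Peg10, Cpm and Thsd4 were also among the genes with the largest ratios. Peg10, an imprinted gene derived from a retrotransposon, stood at 65.2 and 503 CPM (7.72-fold, 6.34 to 9.45), and 47 of 61 spots of E12.5 were above the highest E11.5 spot of 290 CPM. Cpm, a membrane carboxypeptidase, and Thsd4, a protein of microfibrils, had ratios of 7.36 (5.04 to 11.01) and 7.27 (4.49 to 12.3). Among spots of like collagen level, Peg10 had a ratio of 5.38, Thsd4 of 6.003, Cpm of 3.09 and Mia of 2.81. Of the 12 genes with the largest ratios in the cartilage spots, 10 had enough UMIs in that comparison and 8 of them were higher; Col11a2 and Cnmd were not. Without notochord spots at that level, 247 genes were higher (3.97%) and 74 lower (1.19%), and 5 of 12 cartilage matrix genes with enough UMIs were higher (median log2 ratio 0.63). Col11a2 was then among the higher ones (2.30-fold, 1.77 to 3.02), while Cnmd stood at 1.32 (1.01 to 1.73). The ratio there was 25.7 for Gdf10, 6.93 for Ccn2, 5.62 for Thbs1 and 5.54 for Peg10.

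**Figure D4:**
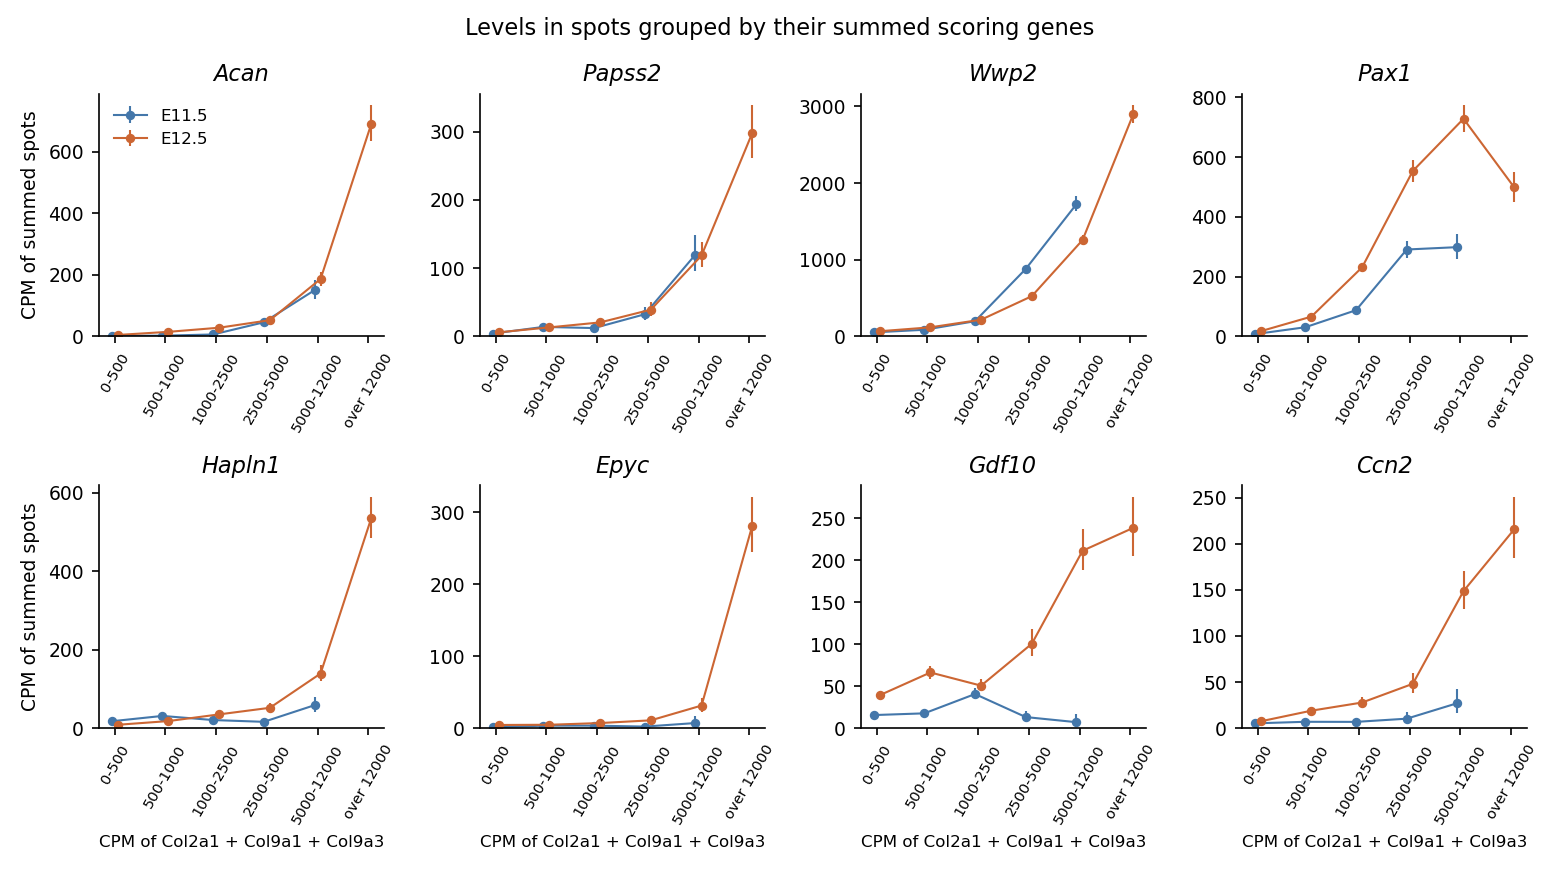
CPM of 8 genes in summed spots of all tissues grouped by their CPM of the 3 scoring genes (horizontal axis), for E11.5 and E12.5, with 95% counting intervals as bars; the range over 12000 CPM is drawn for E12.5 only, since 1 spot of E11.5 was in it. At 5000 to 12000 CPM the stages lie close together for Acan and Papss2, while Gdf10 stands at 7.14 CPM at E11.5 and 212 CPM at E12.5 and Wwp2 is lower at E12.5.

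The ratios of the transcription factors were smaller than those of most matrix genes. Of 16 listed factors and cofactors of chondrocytes, 11 had enough UMIs, 5 were higher and 0 lower, and their median log2 ratio was 0.89, beside 0.96 in the other spots. Sox9 stood at 269 CPM at E11.5 and 485 CPM at E12.5, a ratio of 1.81 (1.599 to 2.04) that stayed under 2-fold, beside 1.67 in the other spots. Its medians were 259 and 482 CPM, and only 4 spots of E12.5 were above the highest spot of E11.5. Sox5 stood at 40.0 and 106 CPM (2.65-fold) and Sox6 at 33.6 and 76.8 CPM (2.28-fold). Wwp2, whose intron holds a cartilage microRNA and which is a target of Sox9, stood at 1237 and 2528 CPM (2.04-fold, 1.94 to 2.16). Nfia and Runx1 had ratios of 2.15 and 2.40. At a like collagen level, Sox9 was at 0.816 (0.696 to 0.960) and Wwp2 at 0.728 (0.677 to 0.784), so the E12.5 spots held less of both per UMI than E11.5 spots of that level. Sox5 was at 1.00 there. Wwp2 stood at a log2 ratio of 0.93 after median-of-ratios scaling, under 2-fold, and without notochord spots Runx1 had a ratio of 1.597, Nfia a log2 ratio of 0.91 and Sox6 one of 0.99.

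Aggrecan carries sulfated sugar chains, and some enzymes and transporters of sulfation and sugar chain synthesis, not all of them for aggrecan, were higher at E12.5. Of 18 listed genes of sulfation and glycosaminoglycan synthesis, 13 had enough UMIs, 5 were higher and 1 lower, with a median log2 ratio of 0.90 beside 0.58 in the other spots. Papss2, which makes the sulfate donor in cartilage, stood at 64.1 and 261 CPM (4.07-fold, 3.29 to 5.07), and 23 of 61 spots of E12.5 were above every spot of E11.5. Slc26a2, the sulfate transporter of chondrocytes, stood at 11.6 and 53.8 CPM (4.65-fold, 2.82 to 7.96), and Chst11, a chondroitin sulfotransferase, at 19.98 and 70.6 CPM (3.53-fold). Extl1, a glycosyltransferase of heparan sulfate, and the nucleotide sugar transporter Slc35d1 had ratios of 7.22 (3.57 to 16.1) and 2.52. Has2, a hyaluronan synthase, was the lower one, at 24.2 and 10.6 CPM (2.28-fold lower, 1.19 to 4.74). At a like collagen level, Papss2 stood at a ratio of 0.989, Slc26a2 at 2.50 and Slc35d1 at 0.70.

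Genes that fold and export collagen changed by smaller factors. Of 19 listed genes found in the files, 17 had enough UMIs, 5 were higher and 0 lower, with a median log2 ratio of 0.72 beside 0.55 in the other spots. The 5 were P4ha1 (47.8 and 114 CPM, 2.38-fold) and P4ha2 (49.9 and 130 CPM, 2.60-fold; 1.05 in the other spots), which hydroxylate prolines of collagen, P3h1 (2.43-fold) and its partner Crtap (2.61-fold), and Kdelr3 (2.79-fold), which returns proteins to the endoplasmic reticulum. Serpinh1, the collagen chaperone HSP47, stood at 1058 and 1927 CPM (1.82, 1.71 to 1.94) and did not reach 2-fold.

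Among signalling genes, some receptors, inhibitors and targets of FGF and BMP signals were higher at E12.5. Of 16 FGF genes, 7 had enough UMIs, 3 were higher and 0 lower (median log2 ratio 0.52, beside 0.51 in the other spots). Fgfr3, the FGF receptor of proliferating chondrocytes, stood at 65.2 and 273 CPM (4.18-fold, 3.39 to 5.19), while it stood at 41.8 and 34.5 CPM in the other spots (0.824). Its median over cartilage spots was 44.8 CPM at E11.5 and 214 CPM at E12.5, and 14 spots of E12.5 exceeded the highest E11.5 spot of 420 CPM. The decoy receptor Fgfrl1 and the FGF target Etv5 had ratios of 2.32 and 3.79, whereas Fgfr1 and Fgfr2 stood at 1.17 and 1.36. Fgfr3 had a ratio of 1.04 and Etv5 one of 5.59 at a like collagen level. Of 21 BMP and GDF genes, 11 had enough UMIs, 3 were higher (Gdf10, Nog and Id1) and 0 lower (median log2 ratio 0.37, beside 0.17). Nog, the BMP inhibitor noggin, stood at 28.4 and 123 CPM (4.32-fold, 3.13 to 6.03; 1.58 at a like collagen level), and Id1, a BMP target, at 199 and 438 CPM (2.20-fold; 0.978 in the other spots).

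Calls in the remaining pathways are set beside 4.56% higher and 2.39% lower over all 7999 genes. Of 11 hedgehog genes, all with enough UMIs, only Hhip, an inhibitor of the signal, was higher (11.6 and 27.4 CPM, 2.37-fold, median log2 ratio of the list 0.51). The hedgehog targets Ptch1 and Gli1 stood at ratios of 1.499 and 0.776. Of 17 Wnt genes, 6 had enough UMIs and Sfrp2, a Wnt antagonist, was 2.30-fold lower at 146 and 63.5 CPM, whereas its ratio in the other spots was 1.90. Hhip and Sfrp2 no longer reached 2-fold without notochord spots (log2 ratios 0.73 and -0.92). Of 18 IGF and imprinted growth genes, 16 had enough UMIs, 4 were higher and 1 lower (median log2 ratio 0.63, beside 0.57). Dlk1, a membrane protein of the Notch ligand type, stood at 246 and 734 CPM (2.98-fold), and Igf2r, Plagl1 and Mest had ratios of 3.36, 2.74 and 2.04, Mest falling to a log2 ratio of 0.93 after median-of-ratios scaling. Igfbp2 was 2.32-fold lower (160 and 68.8 CPM). The growth factor Igf2 stood at 1312 and 2155 CPM (1.64) and the imprinted RNA H19 at 5004 and 6790 CPM (1.36).

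Of 16 sclerotome and somite factors found in the files, 9 had enough UMIs, and 0 were higher and 1 lower in the cartilage spots. Over all 7999 genes, 4.56% were higher and 2.39% lower, so a list of 9 cannot show a lack of calls. The median log2 ratio of the list was 0.15 beside 0.82 in the other spots. Pax1 stood at 309 and 539 CPM (1.74, 1.55 to 1.96), beside 18.6 and 128.3 CPM in the other spots (6.89). Pax9 stood at 67.8 and 67.1 CPM (0.989) and Foxf1 at a ratio of 1.03. Pax1 stood at 298.5 and 728 CPM (2.44) at a like collagen level, and in the E12.5 spots above 12000 CPM at 498 CPM, below the level of the range under it. Prrx1, a factor of limb and facial mesenchyme, was 2.09-fold lower (1.47 to 3.04) at 75.7 and 36.2 CPM, and its log2 ratio was 0.21 at a like collagen level and -0.95 without notochord spots.

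Fibrous connective tissue genes split. Of 24, 21 had enough UMIs, 4 were higher and 2 lower, with a median log2 ratio of 0.32 beside 0.89 in the other spots. Tnc, tenascin C, stood at 30.0 and 158 CPM (5.27-fold, 3.89 to 7.23; 4.85 at a like collagen level). Lum, the proteoglycan lumican, stood at 195 and 494 CPM (2.53-fold), Col1a2 at 407 and 935 CPM (2.30-fold) and Col5a1 at 123 and 260 CPM (2.13-fold, or a log2 ratio of 0.99 after median-of-ratios scaling, under 2-fold). Col1a1, the partner chain of Col1a2, stood at 120 and 111 CPM (0.923), beside a ratio of 2.22 in the other spots, and Col3a1 at 1.03 beside 2.27. The lower genes were Dcn, decorin, at 52.6 and 24.7 CPM (2.13-fold lower, 1.39 to 3.36), and Ogn, osteoglycin, at 24.7 and 10.6 CPM (2.33-fold lower). Both were over 2-fold higher in the other spots, with ratios of 2.23 and 2.21. Neither reached 2-fold in the cartilage spots without notochord spots (log2 ratios -0.85 and -0.90) or with the top 10% of spots (-0.71 and -0.81).

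Hypertrophic and bone genes were scarce. Of 15, only Spp1, Mef2c and Pth1r had enough UMIs, and Col10a1, Ibsp and Mmp13, which define hypertrophic cartilage and early bone, were at 0 UMIs at both stages. Spp1, osteopontin, had 12 UMIs at E11.5 and 42 at E12.5 (5.87-fold, 3.04 to 12.3), but 2 and 1 UMIs without the notochord spots. Mef2c, a factor of chondrocyte maturation, had a ratio of 3.21, and Pth1r, the parathyroid hormone receptor, one of 1.23.

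The cell cycle genes passed 2-fold in neither direction. All 22 had enough UMIs and 0 were higher or lower. Of all 7999 genes, 4.56% were higher and 2.39% lower, so a list of this size cannot show a lack of calls. The ratios of the 22 ran from 0.746 to 1.47, with a median log2 ratio of 0.15 beside -0.08 in the other spots. Mki67, a marker of dividing cells, stood at 314 and 240 CPM (0.763), beside 0.6999 in the other spots. Of 17 glycolysis and hypoxia genes with enough UMIs, 1 was higher and 0 lower, which is no lack of calls beside these shares. The median log2 ratio was 0.30 in the cartilage spots and -0.44 in the other spots, and all 17 had a higher ratio in the cartilage spots, as did 42.4% of all genes. Ldha, lactate dehydrogenase, stood at 1039 and 1539 CPM (1.48) in cartilage spots and at 807 and 556 CPM in the other spots (0.689). The glucose transporter Slc2a1 had ratios of 1.71 and 0.735, and the kinase Pdk1, the higher one, 2.08 (1.47 to 2.94) and 0.982. Its call was lost after median-of-ratios scaling (log2 ratio 0.95) and without notochord spots (0.70). Without notochord spots the median log2 ratio of the list was -0.02, and 15 of 17 genes had a higher ratio than in the other spots. Ldha stood at a ratio of 0.913 and Slc2a1 at 0.795 at a like collagen level. The difference between cartilage and other spots was not tested.

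The 12 named genes with the largest ratios among those lower at E12.5 were Myl7, Myh7 and Myl4 of heart muscle, Afp of the liver and yolk sac, Car2 and Slc4a1 of red cells, the neuronal genes Sncg, Stmn3, Rtn1, Stmn2 and Tubb3, and the metallothionein Mt1. Myl7 stood at 146 CPM at E11.5 and had 2 UMIs at E12.5 (82.8-fold lower, 22.7 to 687), and it went from 496 to 1.64 CPM in the other spots too. Afp had 200 UMIs at E11.5 and 0 at E12.5, at least 39.7-fold lower when 3 UMIs are set for the 0. Mt1 stood at 321 and 18.5 CPM (17.3-fold lower, 11.2 to 28.2), with a median of 190 CPM over E11.5 spots and 0 CPM over those of E12.5. Tubb3, a neuronal tubulin, stood at 181 and 27.4 CPM (6.61-fold lower, 4.57 to 9.88), whereas it stood at 505 CPM at both stages in the other spots. Its median was 140 CPM over E11.5 cartilage spots and 0 CPM over those of E12.5, none of which reached the highest E11.5 value of 736 CPM. Of the 12, 10 had enough UMIs at a like collagen level and all 10 were lower there.

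By list, markers of other tissues in the cartilage spots moved as follows. The 9 heart genes summed to 424 CPM at E11.5 and 25.6 at E12.5, 5 of 5 with enough UMIs were lower, and Nppa, Myh6 and Nkx2-5 were at 0 UMIs at E12.5. In the other spots the heart genes summed to 2038 and 234 CPM. The 12 neural tube genes summed to 558 and 158 CPM, beside 1552 and 1540 CPM in the other spots, 4 of 5 were lower, and Pax6, Neurog2 and Olig2 were at 0 UMIs at E12.5. Over single spots the neural sum ran from 41.7 over a median of 435 to 1701 CPM at E11.5 and from 0 over 138 to 696 CPM at E12.5. Embryonic globins summed to 21061 and 1287 CPM, adult globins to 6280 and 803 CPM, and all 7 of these genes were lower. In the other spots the embryonic globins summed to 42196 and 8408 CPM and the adult ones to 13417 and 6131 CPM. Macrophage genes summed to 207 and 92.7 CPM, and 3 of 4 were lower (C1qb, Tyrobp and Fcer1g), beside sums of 141 and 201 CPM in the other spots. Liver genes summed to 238 and 38.8 CPM, with Afp, Alb, Apob and Fgb at 0 UMIs at E12.5 and a median log2 ratio of -4.63, or -3.33 with genes at 0 UMIs set to 3. In the other spots they summed to 796 and 11.3 CPM.

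The lists of further tissues had at most 1 gene called in each direction. Tendon genes summed to 122 and 270 CPM, with Tnc higher and Scx, the tendon factor, at a ratio of 0.902. Skeletal muscle genes summed to 111 and 139 CPM, with Myf5 and Myf6 at 0 UMIs at both stages, neural crest genes to 187 and 118 CPM and endothelial genes to 97.8 and 69.7 CPM. Facial mesenchyme genes summed to 103 and 57.4 CPM, epidermal genes to 9.99 and 17.6 CPM, lung and gut genes to 55.2 and 74.1 CPM and limb mesenchyme genes to 15.2 and 7.06 CPM. In the other spots the facial sums were 261 and 72.7 CPM, the epidermal ones 51.3 and 84.9 CPM. Lung and gut genes stood at 28.6 and 34.8 CPM there, and limb mesenchyme genes at 103 and 43.0 CPM. Without the 7 heart spots of E11.5, 362 genes were higher (4.59%; 339 among the 365) and 186 lower (2.36%; 176 among the 191), and the cartilage matrix list kept its 15 of 16 genes higher. The part of the other tissues in the results was not tested.

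Hox genes, whose group number follows the position along the body axis, differed most in the groups of the posterior body. Of 16 genes of groups 9 to 13, 6 had enough UMIs, 5 were higher and 0 lower, with a median log2 ratio of 3.27 beside 1.69 in the other spots. Their sum stood at 76.2 CPM at E11.5 and 371 CPM at E12.5, and at 158 and 509 CPM in the other spots. Hoxa10 had 2 UMIs at E11.5 and 66 at E12.5 (55.4, 14.7 to 467), and Hoxd9 stood at 3.68 and 57.4 CPM (15.6-fold, 7.15 to 40.3). Of 8 genes of groups 6 to 8, 6 had enough UMIs and 1 was higher, Hoxa7 (2.16-fold, median log2 ratio of the list 0.27). Of 15 genes of groups 1 to 5, 8 had enough UMIs and 1 was lower (median log2 ratio 0.11): Hoxc5 stood at 71.0 and 17.6 CPM, 4.02-fold lower (2.50 to 6.79), while it stood at 23.3 and 49.6 CPM in the other spots. Axial level and stage cannot be told apart.

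**Figure D5:**
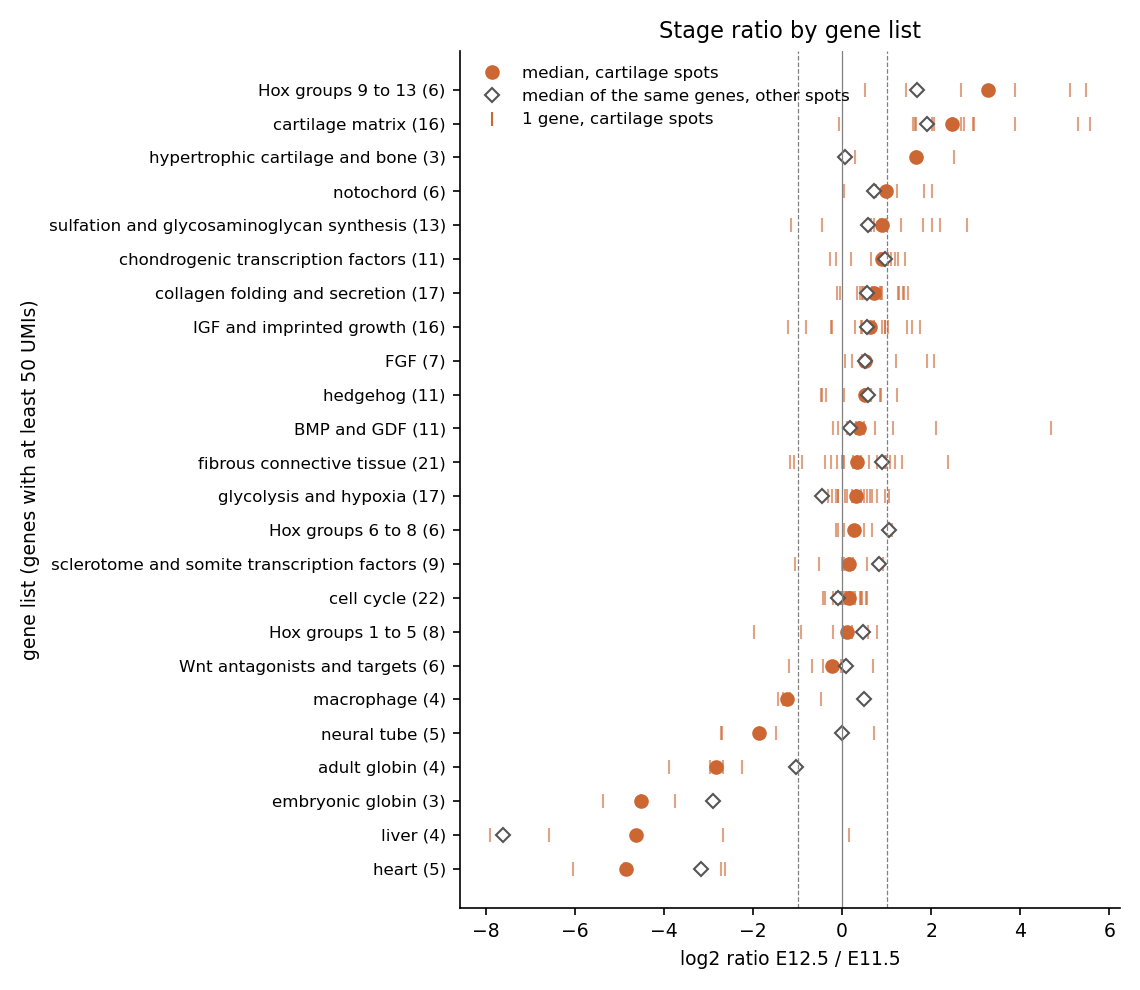
Log2 ratio of CPM, E12.5 over E11.5, of 24 gene lists with at least 3 genes of 50 UMIs or more (their number in brackets), with 1 tick per gene and the median as a filled circle in the cartilage spots, the median of the same genes in the other spots as an open diamond, and dashed lines at 2-fold. The medians run from 3.27 for Hox groups 9 to 13 and 2.48 for the cartilage matrix down to -4.84 for heart genes, and cell cycle genes lie at 0.15.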

How the data were processed

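The authors deposited 1 matrix of unnormalised UMI counts per section, with genes as rows and spots as columns. Space Ranger 1.2.0 wrote it, per the file headers. The submitters' processing notes also name STAR and mm10. How spots were kept and which annotation was used is not given in the sources used here. Stages were taken from the sample titles, and each stage has 1 section. Spot positions and images were not used here.

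UMIs were summed over the cartilage spots of a section and divided by their total (CPM). For log2 ratios 0.5 UMI was added to each sum, and a 0 was set to 3 UMIs for a bound. Because the sums come from 1 section per stage, no test was run. In each direction, the 12 genes with the largest ratio among those with at least 100 UMIs and 2-fold were named, then the members of 32 gene lists. The naming left out the scoring, globin, mitochondrial, ribosomal protein and sex-linked genes, unnamed gene models and 78 entries with a repeated symbol. Other named genes are said to have been chosen after their values were seen. The members, gene lists and comparisons were chosen with earlier results of these data known. Promoter windows were shortened to the 250 bases before each start. Of 32285 genes, 32158 IDs were in the reference table, 31436 under the same symbol. Alternatives changed the share of spots, the spot filter, the scoring, the weighting, the depth, the scaling, the count minimum and the fold, or left out notochord, heart or neural spots. The ratio and interval code was tested on simulated counts. Python 3.11.15, numpy 2.4.6, scipy 1.17.1, pandas 2.3.3 and matplotlib 3.10.9 were used.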

Additional observations from a re-analysis of the deposited data

Results flagged for a closer look

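In the cartilage spots, 7 genes passed 2-fold in the opposite direction to the other spots of the same sections, 2 of them higher and 5 lower at E12.5, and the difference between the spots was not tested. S100a8 and Tbx15 were named after their values had been seen. Log2 ratios in the cartilage spots and the other spots were -1.07 and 1.16 for Dcn, -1.18 and 1.15 for Ogn, and -1.98 and 1.09 for Hoxc5. Tbx15, a T-box factor, had 65 UMIs at E11.5 and 1 at E12.5 in the cartilage spots (a ratio of 0.0258, 0.000644 to 0.149), with log2 ratios of -4.70 and 1.86. S100a8, a calcium-binding protein of myeloid cells, had -1.24 and 1.40. Alx1, a homeobox factor of facial mesenchyme, had 7 and 46 UMIs, with log2 ratios of 3.38 and -3.89. Krt8 had 1.22 and -1.75, but 21.0 and 17.0 CPM (a ratio of 0.809) in cartilage spots outside the notochord spots. Each value rests on 1 section per stage.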

How the results depend on the processing

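No paired analysis was possible because each stage has 1 section, and no replicate could be left out. The comparisons at a like collagen level, with and without notochord spots, and over spots with Pax1 or Pax9 UMIs were added after the data had been seen. Of the main counts (365 higher, 191 lower), the higher one was 125 after thinning to 5000 UMIs per spot, 688 and 92 with at least 20 and 200 UMIs per gene, and 1168 at a fold of 1.5. The lower one was 70, 471, 47 and 551 in the same settings, and 79 at a like collagen level (74 without notochord spots). Under the alternatives not named here, the higher count ran from 247 to 401 and the lower one from 153 to 257. Of 365 higher genes, 156 were also higher with the top 3% of spots, where 250 of 5204 genes with enough UMIs were higher. With the top 10%, 237 were also higher, where 401 of 9639 were. Genes under 50 UMIs in a setting could not be called there. The cartilage matrix list had 13 of 14 genes higher with the top 3%, 11 of 12 after thinning and 17 of 19 with at least 20 UMIs per gene.

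At a like collagen level, only 101 of the 365 higher and 51 of the 191 lower genes kept their call, and 96 and 42 without notochord spots. Changes of sign were followed for the called genes among the named genes and list members only. The log2 ratio, with 0.5 UMI added to each sum, changed sign for 10 of them. It went to -0.35 for Lgals3, -0.21 for Chad, -0.69 for Snorc, -0.0044 for Susd5 and -0.0088 for Sox5. For Wwp2 it went to -0.46, for Papss2 to -0.021, for Slc35d1 to -0.52, for Prrx1 to 0.21 and for Spp1 to -0.999. Without the added 0.5 UMI, Susd5 (98.55 and 98.61 CPM) and Sox5 (52.85 and 52.88 CPM) were level and did not turn. Lgals3, with 19 and 30 UMIs, was under the minimum of 50. Without notochord spots at that level, the log2 ratio changed sign for 8, to -0.083 for Lgals3, -0.28 for Chad, -0.47 for Wwp2 and -0.13 for Papss2. The others were Slc35d1 (-0.71), Prrx1 (0.0023), Spp1 (-1.16) and Pdk1 (-0.061). Lgals3 had 4 and 9 UMIs there and a ratio of 1.01 without the added 0.5 UMI. The intervals of the ratio included 1 for Chad (0.515 to 1.37), Papss2 (0.694 to 1.22), Prrx1 (0.670 to 1.55) and Pdk1 (0.587 to 1.64). Calls were also lost with the top 10% of spots for Has2 (-0.55), Col1a2 (0.87), Lum (0.86), Id1 (0.84), Sfrp2 (-0.76), Igfbp2 (-0.99) and Mest (0.97), and with the top 3% for Wwp2 (0.96), Nfia (0.88), Prrx1 (-0.64), Dcn (-0.22) and Hoxa7 (0.89). The cause was not tested. Counting limits the genes with few UMIs, since 1 UMI is worth 50.1 CPM in the median E11.5 cartilage spot and 55.0 CPM in that of E12.5.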

Other observations

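The genes in this paragraph were chosen after their values had been seen. Tbx1, a T-box factor of the pharyngeal arches, stood at 208 CPM in the E11.5 cartilage spots and 69.7 CPM in those of E12.5, 2.98-fold lower (2.33 to 3.84), and at 29.9 and 30.4 CPM in the other spots. Its median was 131.5 CPM over E11.5 cartilage spots and 0 CPM over those of E12.5, and it stood at 214 and 44.9 CPM without notochord spots. Meis1, a homeobox cofactor of Hox proteins, was 4.21-fold lower at 111 and 26.5 CPM, beside 124 and 129 CPM in the other spots. Fibin, a secreted protein first described in fin development, stood at 120 and 683 CPM, 5.67-fold higher, and was also higher in the other spots (17.4 and 159 CPM) and at a like collagen level (3.07-fold).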
